A study of Mus musculus with 3 samples.

Results

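Cholesterol synthesis was followed through 8 of its enzyme genes, *Hmgcs1*, *Sqle*, *Fdft1*, *Fdps*, *Idi1*, *Cyp51*, *Dhcr7* and *Msmo1*, in 3 mouse brain sections profiled on a spatial array. The genes were taken by symbol from the 31053 genes of the count tables, and 8 of 8 were found. The sections were 10 µm fresh frozen brain sections of C57BL/6J mice, 1 section per group: O-Ex, labelled exercise, O-Ctrl, labelled control, and Y-Ctrl, also labelled control. The stated aim of the series was to see how exercise acts on the ageing brain. Ages, the kind and length of the exercise, sex, and how many animals the sections came from are not stated in the labels. A spot of the array captures RNA from a small patch of tissue that can hold parts of several cells, so fewer cells of a type and less RNA per cell cannot be told apart.

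These enzymes act along a single route. *Hmgcs1* encodes the cytosolic synthase that makes HMG-CoA, *Idi1* the isomerase of the activated isoprene units, and *Fdps* the synthase that joins these units to farnesyl diphosphate, where the route branches to non-sterol isoprenoids. *Fdft1* encodes squalene synthase, the first enzyme committed to sterols, and *Sqle* encodes squalene epoxidase, an oxygen-dependent and often rate-controlling step. *Cyp51* (lanosterol 14-demethylase), *Msmo1* (methylsterol monooxygenase) and *Dhcr7* (7-dehydrocholesterol reductase, which makes cholesterol itself) carry the sterol from lanosterol to the end product. The brain makes its own cholesterol, since lipoproteins of the blood do not cross the blood-brain barrier, and much of it lies in myelin, the membrane sheath that oligodendrocytes wrap around axons. Cells raise transcription of this route when membrane sterol is low, through the factor SREBP-2, which binds sterol response elements in the promoters together with NF-Y and Sp1.

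In mm10 with the GENCODE vM21 annotation the members are protein-coding genes at chr13:119690379-119708260 (*Hmgcs1*, plus strand), chr13:8885501-8892451 (*Idi1*, plus), chr3:89093588-89101959 (*Fdps*, minus), chr14:63145150-63179578 (*Fdft1*, minus), chr15:59315077-59331192 (*Sqle*, plus), chr5:4081145-4104746 (*Cyp51*, minus), chr8:64718139-64733792 (*Msmo1*, minus) and chr7:143823145-143848410 (*Dhcr7*, plus). Promoter sequence is shown for the members whose windows hold letters of that element, because the 8 genes are described together below. RefSeq promoter windows (GRCm38.p6, the 250 bases before each start) were at hand for 5 of the 8 members: *Hmgcs1*, *Idi1*, *Cyp51*, *Dhcr7* (3 entries) and *Msmo1*. The motifs searched on both strands were TCACNCCAC and the shorter TCACNNCA, which overlap, for the sterol response element, CCAAT for NF-Y and GGGCGG for Sp1. Of 32851 RefSeq windows of this length, 1.05% held TCACNCCAC, 11.4% TCACNNCA, 33.8% CCAAT and 32.7% GGGCGG. The *Hmgcs1* window lies at chr13:119690101-119690350 on the plus strand, and the *Cyp51* stretch, limited to bases outside annotated exons, at chr5:4104747-4104947 on the minus strand. Capitals mark the sterol response element letters.
Hmgcs1: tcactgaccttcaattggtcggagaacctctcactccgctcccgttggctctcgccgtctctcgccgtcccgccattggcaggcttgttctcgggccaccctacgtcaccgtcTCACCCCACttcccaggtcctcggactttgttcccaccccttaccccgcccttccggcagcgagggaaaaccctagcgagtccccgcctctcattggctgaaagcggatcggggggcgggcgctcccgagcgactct
Cyp51: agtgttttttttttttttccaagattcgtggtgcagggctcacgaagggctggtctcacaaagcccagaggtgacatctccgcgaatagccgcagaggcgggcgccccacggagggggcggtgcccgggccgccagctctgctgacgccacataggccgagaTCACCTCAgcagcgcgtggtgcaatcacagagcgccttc
*Hmgcs1* held the longer motif at position -137 from its start, with 3 CCAAT and 2 GGGCGG matches around it. *Cyp51* held the shorter motif at -88. Msmo1 held it at -177 and -92 (chr8:64733738-64733765 and chr8:64733653-64733680, minus strand), the second *Dhcr7* entry held it at -130 (chr7:143823259-143823286, plus strand), and the third at -32 (chr7:143830172-143830199, plus strand). These sites are shown in 28-base stretches. By the GENCODE positions above, these *Msmo1* and *Dhcr7* sites lie inside the annotated genes, and their windows overlap 2 to 3 annotated exons.
Msmo1, site at -177: ctcactattcTCACTCCAtccgcgcagc
Msmo1, site at -92: cacggaccaaTCACTGCAcggcgaaggc
Dhcr7, site at -130: ggaaaagggcTCACTTCAccttatagct
Dhcr7, site at -32: gtctgtgaccTCACATCAtctggggcgg
The *Idi1* window and the first *Dhcr7* entry held neither form of the motif. A match describes letters in a window, and binding was not measured here.

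The sections were of similar depth. Spots with at least 3000 UMIs (unique molecular identifiers, each counting 1 captured molecule) numbered 3332 in O-Ex, 3498 in O-Ctrl and 3409 in Y-Ctrl, and held 51862713 UMIs in O-Ex, 57003788 in O-Ctrl and 61186997 in Y-Ctrl. Median depth per spot ran between 13685 and 15718 UMIs, and 17.8% to 19.7% of UMIs came from mitochondrially encoded genes. The 4992 barcodes are array positions common to the 3 arrays and do not mark shared cells. Spots were sorted into 15 spot groups by marker genes that include none of the 8 enzymes, and 1041 to 1206 spots per section fell in no group. The 8 white matter markers were all among that group's 20 leading genes, while 2 of the 9 markers of the CA2 and CA3 group were, behind *Hpca*. Habenula markers summed to 236 CPM (UMIs of a gene scaled to a common total) in O-Ex, 404 in O-Ctrl and 2385 in Y-Ctrl, so that group was not matched between sections, and the thalamus group held 244 spots in O-Ex, 262 in O-Ctrl and 480 in Y-Ctrl. The striatum group was not matched either, with 40 spots in O-Ex, 96 in O-Ctrl and 107 in Y-Ctrl. Its markers summed to 1185 CPM in O-Ex, 1938 in O-Ctrl and 2364 in Y-Ctrl.

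Over whole sections, the 8 genes of the exercise section lay close to those of the O-Ctrl section. None of the 8 was at least 1.2-fold higher or lower in O-Ex than in O-Ctrl, against 5.84% of 9013 genes that were higher and 0.821% that were lower by that size. Their median log2 ratio was 0.10, beside 0.06 over all genes. Because each group is 1 section, these are values without a test, intervals are exact 95% Poisson intervals that cover counting error only, and section, animal and condition cannot be told apart. Ratios between sections are on the log2(CPM + 5) scale.

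*Sqle*, the epoxidase, was at 57.7 CPM in O-Ex (95% interval 55.7 to 59.9), 49.1 CPM in O-Ctrl (47.3 to 50.9) and 45.7 CPM in Y-Ctrl (44.0 to 47.4). The O-Ex interval lies above both others, and the log2 ratio was 0.21 for O-Ex over O-Ctrl and 0.31 for O-Ex over Y-Ctrl. *Cyp51* was at 42.6 CPM in O-Ex, 37.3 CPM in O-Ctrl and 40.7 CPM in Y-Ctrl, lowest in O-Ctrl. *Hmgcs1* was at 172 CPM in O-Ex, 162 CPM in O-Ctrl and 161 CPM in Y-Ctrl, and the intervals of the control sections overlapped. *Hmgcs1* was higher in O-Ex than in O-Ctrl in 14 of the 15 spot groups, which 5.97% of all genes were, and *Sqle* in 12 of 15, which 22.6% were. The remaining ratios of O-Ex over O-Ctrl were small: 0.10 for *Fdft1*, -0.02 for *Fdps*, -0.06 for *Idi1*, 0.12 for *Dhcr7* and 0.10 for *Msmo1*. Scaling sections by the median of ratios took the *Hmgcs1* ratio to 0.01, and the equal-weight mean over spot groups took it to 0.17.

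Between the control sections, the ratios farthest from 0 were those of *Fdft1*, *Fdps* and *Idi1*. *Fdft1*, squalene synthase, was at 98.2 CPM in O-Ex (95.5 to 101), 91.3 CPM in O-Ctrl (88.9 to 93.8) and 74.2 CPM in Y-Ctrl (72.1 to 76.4). *Fdps*, the step before it, was at 83.8 CPM in O-Ex, 85.3 CPM in O-Ctrl and 72.6 CPM in Y-Ctrl. *Idi1*, upstream of both, ran the other way, with 31.9 CPM in O-Ex, 33.5 CPM in O-Ctrl and 39.1 CPM in Y-Ctrl. Thus *Fdft1* and *Fdps* were lowest and *Idi1* highest in Y-Ctrl, with intervals there that do not reach those of the other sections. The log2 ratio of O-Ctrl over Y-Ctrl was 0.28 for *Fdft1*, 0.22 for *Fdps* and -0.20 for *Idi1*, and *Fdft1* alone of the 8 was at least 1.2-fold higher, as 2.44% of all genes were. None of the 8 was 1.2-fold lower, as 2.27% were.

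*Fdps* was higher in O-Ctrl than in Y-Ctrl in 13 of 15 spot groups, which 3.88% of all genes were, and *Fdft1* in 12 of 15, which 7.69% were. The thalamus went against both, at -0.46 for *Fdft1* and -0.22 for *Fdps*. *Idi1* and *Cyp51* were lower in O-Ctrl in 11 of 15 groups each, as 15.6% of genes were. *Idi1* had its lowest ratio in the habenula, -0.96, from 20 UMIs in O-Ctrl and 40 in Y-Ctrl. *Msmo1* was at 102 CPM in O-Ex, 94.5 CPM in O-Ctrl and 90.9 CPM in Y-Ctrl, and *Dhcr7* at 26.6 CPM in O-Ex, 24.1 in O-Ctrl and 23.7 in Y-Ctrl. O-Ex over Y-Ctrl, which shares a section with each of the other comparisons, gave *Sqle* and *Fdft1* as 2 of 8 at least 1.2-fold higher, beside 9.18% of all genes, and 0 of 8 lower, beside 2.78%.

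**Figure D1:**
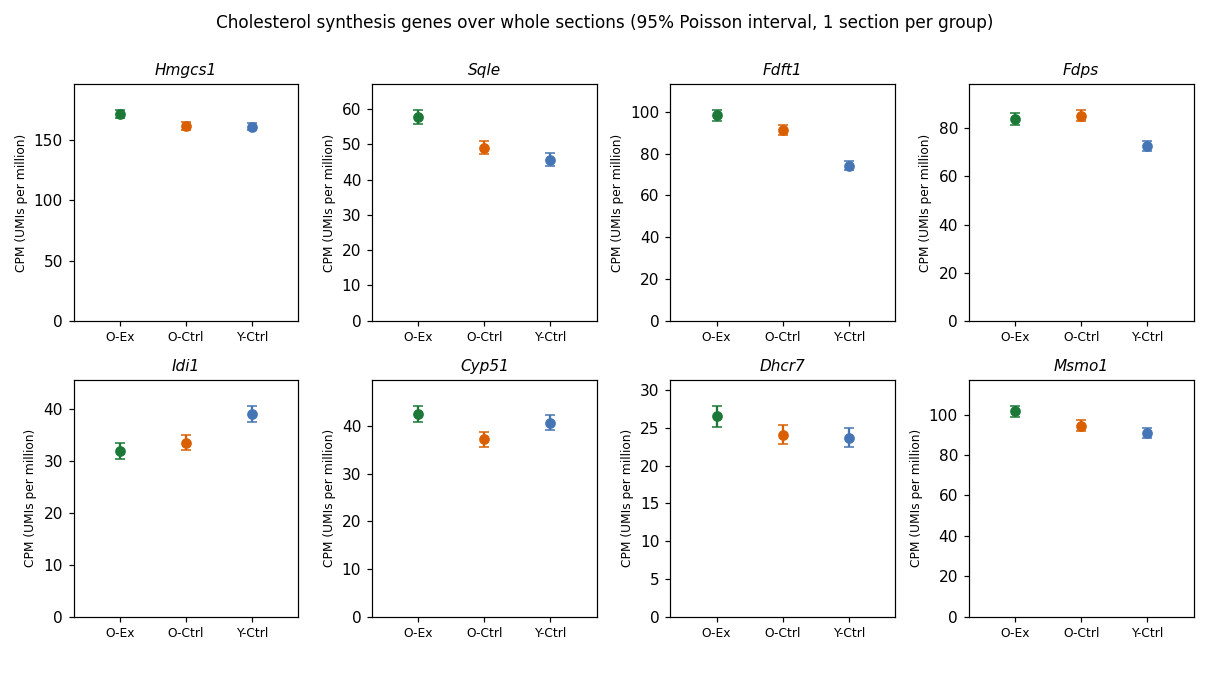
Level of each of the 8 genes over a whole section in CPM (vertical axis, from 0) for O-Ex, O-Ctrl and Y-Ctrl, 1 section each; bars are 95% Poisson intervals. *Fdft1* and *Fdps* sit lowest in Y-Ctrl, *Idi1* sits highest there, and *Sqle* sits highest in O-Ex.

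Within every section the 8 genes varied from region to region. *Dhcr7* was highest in white matter (44.5 ± 1.1 CPM, SD, n = 3 sections) and lowest in hippocampal CA1 (16.2 ± 1.4 CPM). *Cyp51* was also highest in white matter (55.8 ± 9.8 CPM) and lowest in CA1 (26.6 ± 2.7 CPM), though hypothalamus stood just behind white matter at 54.1 ± 6.8 CPM with an overlapping range. The hypothalamus held the highest *Fdps* (126 ± 3.9 CPM), *Idi1* (52.4 ± 1.5 CPM) and *Msmo1* (136 ± 18.1 CPM). *Hmgcs1* was highest in CA2 and CA3 (219 ± 56.7 CPM), *Fdft1* in cortical layer 6 (125 ± 25.4 CPM) and *Sqle* in the ependyma (79.1 ± 19.9 CPM). For each of the 8 genes the range over sections in its highest group overlapped that of the group next in order, and *Msmo1* in CA2 and CA3 was at 134 ± 23.9 CPM. *Hmgcs1*, *Sqle*, *Idi1* and *Msmo1* were lowest in the dentate gyrus, and *Fdft1* and *Fdps* in the thalamus.

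**Figure D2:**
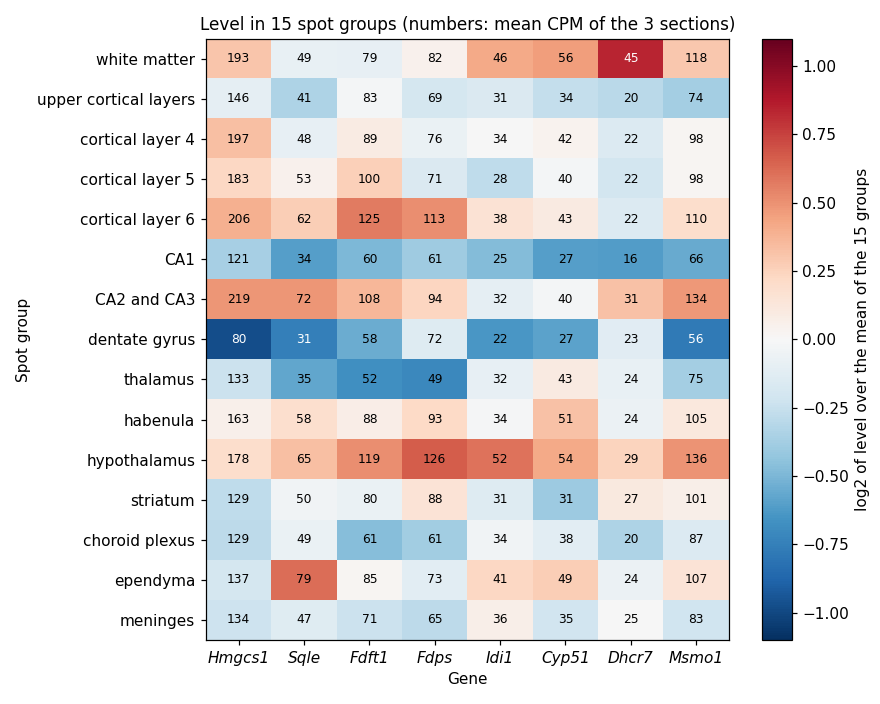
Levels of the 8 genes (columns) in the 15 spot groups (rows); each number is the mean CPM of the 3 sections, and the color is log2 of that level over the gene's mean of the 15 groups. *Dhcr7* stands out in white matter, *Fdps* and *Idi1* in the hypothalamus, and the dentate gyrus and CA1 rows are low for most genes.

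White matter carried more *Dhcr7*, *Cyp51*, *Idi1* and *Msmo1* than the mean of the cortical groups. Summed UMIs per section and spot group were tested with edgeR's quasi-likelihood test against the equal-weight mean of the 4 cortical groups (upper layers and layers 4, 5 and 6), with section as a block and Benjamini-Hochberg adjustment over 13821 genes. The 3 sections are the replicates although they belong to 3 groups. The block takes out shifts that a whole section shares. The p-values thus measure the spread left between sections within spot groups, estimated over all 45 libraries of the 15 spot groups together. In white matter 5 of 8 members rose and 0 fell, beside 34.6% and 33.2% of all genes, and the members' median log2 difference was 0.38, beside 0.03 for all genes.

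*Dhcr7* had 44.7 CPM in white matter of O-Ex, 43.4 in that of O-Ctrl and 45.5 in that of Y-Ctrl, against cortical levels of 22.2 CPM in O-Ex, 21.2 in O-Ctrl and 21.1 in Y-Ctrl. The white matter and cortical values do not overlap, and the log2 difference was 1.2 (SE 0.096, edgeR adjusted p = 9.93e-15). *Cyp51* rose by 0.66 (SE 0.105, edgeR adjusted p = 4.59e-07), *Idi1* by 0.64 (SE 0.104, edgeR adjusted p = 7.10e-07) and *Msmo1* by 0.49 (SE 0.095, edgeR adjusted p = 1.42e-05) on the log2 scale. In cortical layer 6, *Msmo1* ranged from 91.9 to 121 CPM over the sections, *Cyp51* from 37.2 to 53.1 and *Idi1* from 37.5 to 40.3. These ranges overlap those of white matter, at 108 to 128, 47.5 to 66.6 and 38.2 to 59.6 CPM. *Dhcr7* in layer 6 ranged from 20.3 to 24.4 CPM, below its white matter values. *Hmgcs1* rose by 0.26 (SE 0.109, edgeR adjusted p = 0.0348), a call that rests on Y-Ctrl: without that section the difference was 0.09 (edgeR adjusted p = 0.358). The other 3 members were not called, with 0.20 for *Fdps* (SE 0.101, edgeR adjusted p = 0.0766), 0.12 for *Sqle* (SE 0.119, edgeR adjusted p = 0.362) and -0.14 for *Fdft1* (SE 0.11, edgeR adjusted p = 0.267). Without Y-Ctrl, *Fdft1* was called lower in white matter, at -0.28 (edgeR adjusted p = 0.00887).

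All 12 oligodendrocyte and myelin markers rose in white matter, with a median log2 difference of 4.19, and 10 of 10 neuronal markers fell. Also higher were 10 of 10 microglial, 8 of 10 astrocyte and 7 of 8 endothelial markers, with 1 of 8 endothelial markers lower. White matter spots thus held other cell types as well, and the part of each cell type in the enzyme levels was not tested.

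**Figure D3:**
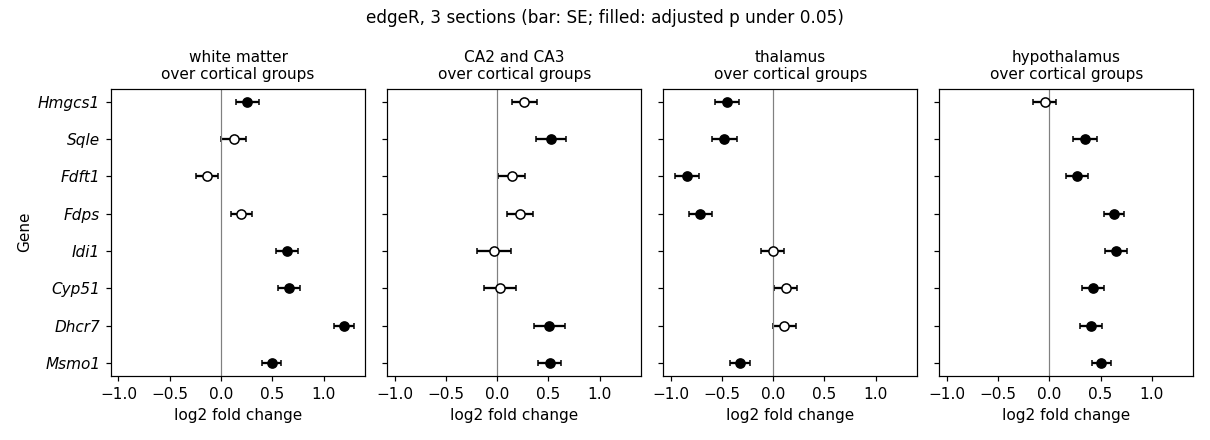
Log2 fold change of each gene in white matter, CA2 and CA3, thalamus and hypothalamus over the cortical groups (edgeR, 3 sections); bars are standard errors and filled points have an adjusted p under 0.05. *Dhcr7* in white matter lies farthest right and *Fdft1* in the thalamus farthest left.

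In the hypothalamus 7 of 8 members rose over cortex and 0 fell, beside 23.9% and 23% of all genes, with a median log2 difference of 0.42 (0.02 for all genes). *Idi1* was at 54.0 CPM in the hypothalamus of O-Ex, 51.1 in that of O-Ctrl and 52.0 in that of Y-Ctrl, against 32.2 CPM in O-Ex, 32.9 in O-Ctrl and 33.5 in Y-Ctrl in cortex, and rose by 0.65 (SE 0.106, edgeR adjusted p = 1.68e-06). *Fdps* was at 128 CPM in O-Ex, 121 in O-Ctrl and 128 in Y-Ctrl there, against 86.1 CPM in O-Ex, 90.6 in O-Ctrl and 68.0 in Y-Ctrl in cortex, and rose by 0.63 (SE 0.097, edgeR adjusted p = 5.35e-07). For both genes the hypothalamic values lay above these values of the summed cortical groups. In cortical layer 6, however, *Fdps* ranged from 93.1 to 134 CPM over the sections, which overlaps its hypothalamic values. *Msmo1* rose by 0.51 (edgeR adjusted p = 2.07e-05), *Cyp51* by 0.43 (adjusted p = 0.00124), *Dhcr7* by 0.41 (adjusted p = 0.00217), *Sqle* by 0.35 (adjusted p = 0.0114) and *Fdft1* by 0.27 (adjusted p = 0.0312). *Sqle* and *Fdft1* lost their calls without O-Ctrl (edgeR adjusted p = 0.0524 and 0.0699) and without Y-Ctrl (edgeR adjusted p = 0.0746 and 0.146). *Hmgcs1*, the entry to the route, was at -0.04 (edgeR adjusted p = 0.776). Beside these, 12 of 12 myelin and 8 of 10 astrocyte markers were higher and 8 of 10 neuronal markers lower in this group, and their part was not tested.

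In the thalamus 0 of 8 members rose over cortex and 5 of 8 fell, beside 23.6% and 24.5% of all genes. *Fdft1* was at 50.0 CPM in the thalamus of O-Ex, 44.5 in that of O-Ctrl and 63.0 in that of Y-Ctrl, against 112 CPM in O-Ex, 105 in O-Ctrl and 78.9 in Y-Ctrl in cortex, and fell by 0.84 (SE 0.117, edgeR adjusted p = 5.24e-08). *Fdps* was at 50.0 CPM in O-Ex, 44.0 in O-Ctrl and 52.0 in Y-Ctrl, against 86.1 CPM in O-Ex, 90.6 in O-Ctrl and 68.0 in Y-Ctrl in cortex, and fell by 0.71 (SE 0.11, edgeR adjusted p = 5.72e-07). Both were lower in the thalamus of every section. *Hmgcs1* fell by 0.45 (edgeR adjusted p = 0.0012), *Sqle* by 0.48 (adjusted p = 0.0014) and *Msmo1* by 0.32 (adjusted p = 0.00751), but these 3 calls were lost without O-Ex and without O-Ctrl, which left 2 of 8. *Hmgcs1* was not lower in every section: its thalamic level was 116 CPM in O-Ex, 114 CPM in O-Ctrl and 168 CPM in Y-Ctrl, where cortex had 158 CPM. *Cyp51* (0.12, SE 0.11) and *Dhcr7* (0.11, SE 0.109), and *Idi1* (-0.01, SE 0.111), passed no test, with edgeR adjusted p of 0.385, 0.434 and 0.976. In the thalamus 12 of 12 myelin markers were higher than in cortex as well, by a median of 1.44. Also higher were 8 of 10 astrocyte, 6 of 8 endothelial, 5 of 10 microglial and 2 of 10 neuronal markers, while 4 of 10 neuronal, 2 of 10 astrocyte and 1 of 8 endothelial markers were lower. The part of these markers in the enzyme values was not tested.

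In the CA2 and CA3 group 3 of 8 rose and 0 fell, beside 14% and 11.4% of all genes: *Sqle* by 0.53 (SE 0.148, edgeR adjusted p = 0.0059), *Msmo1* by 0.51 (SE 0.114, edgeR adjusted p = 0.000475) and *Dhcr7* by 0.51 (SE 0.153, edgeR adjusted p = 0.0102). *Msmo1* was at 162 CPM in that group of O-Ex, 125 in that of O-Ctrl and 117 in that of Y-Ctrl, against 102 CPM in O-Ex, 98.2 in O-Ctrl and 80.3 in Y-Ctrl in cortex. *Dhcr7* rested on the exercise section, with 44.0 CPM in O-Ex, 24.5 in O-Ctrl and 24.9 in Y-Ctrl, and without O-Ex its difference was 0.21 (edgeR adjusted p = 0.525). This is a group of 51 to 54 spots per section, and none of the 12 myelin markers was called there. Of the other marker lists, 5 of 10 astrocyte, 2 of 8 endothelial and 1 of 10 microglial markers were lower there, and 3 of 10 neuronal markers were higher and 1 lower. Their part in the enzyme values was not tested.

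Differences between O-Ctrl and Y-Ctrl were unlike in white matter and in cortex. *Hmgcs1* and *Msmo1* ran opposite ways, and so did *Sqle*, with overlapping intervals in white matter. *Idi1* and *Cyp51* scarcely differed in cortex (log2 ratios of -0.02 and -0.03), and *Fdft1* and *Fdps* scarcely in white matter (-0.04 and 0.00). In white matter, 4 of 8 were at least 1.2-fold lower in O-Ctrl than in Y-Ctrl and 0 were higher, beside 7.37% and 14.5% of 8708 genes, and the median log2 ratio was -0.25, beside 0.02. The count was 3 under 5 of 6 alternatives, which left *Sqle* short of that size. In the cortical groups, 3 of 8 were higher and 0 lower in O-Ctrl, beside 2.63% and 2.54% of 8741 genes, and the median was 0.21, beside 0.00. The 8 genes summed to 644 CPM in white matter of O-Ex, 622 in that of O-Ctrl and 736 in that of Y-Ctrl, and to 654 CPM in O-Ex, 618 in O-Ctrl and 518 in Y-Ctrl in cortex.

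*Idi1* was at 38.2 CPM in white matter of O-Ex (32.0 to 45.2), 40.1 CPM in that of O-Ctrl (34.7 to 46.2) and 59.6 CPM in that of Y-Ctrl (52.8 to 67.1). *Cyp51* was at 53.2 CPM in O-Ex (45.9 to 61.4), 47.5 CPM in O-Ctrl (41.6 to 54.1) and 66.6 CPM in Y-Ctrl (59.4 to 74.5). For both, the O-Ctrl interval lies below that of Y-Ctrl, and the log2 ratio of O-Ctrl over Y-Ctrl was -0.52 for *Idi1* and -0.45 for *Cyp51*. In cortex the intervals of O-Ctrl and Y-Ctrl overlapped for both genes: *Idi1* was at 32.2 CPM in O-Ex, 32.9 in O-Ctrl and 33.5 in Y-Ctrl, and *Cyp51* at 44.7 CPM in O-Ex, 36.2 in O-Ctrl and 37.1 in Y-Ctrl. *Hmgcs1* was at 185 CPM in white matter of O-Ex (171 to 199), 177 CPM in that of O-Ctrl (165 to 189) and 219 CPM in that of Y-Ctrl (205 to 233). In cortex the order turned, with 193 CPM in O-Ex (185 to 201), 186 CPM in O-Ctrl (179 to 194) and 158 CPM in Y-Ctrl (151 to 164). *Sqle* completed the 4, at 51.8 CPM in O-Ex, 42.4 in O-Ctrl and 52.0 in Y-Ctrl within white matter, with a log2 ratio of -0.27 for O-Ctrl over Y-Ctrl, close to the 1.2-fold limit, and overlapping intervals.

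*Dhcr7*, the gene most raised in white matter, had overlapping intervals there, at 44.7 CPM in O-Ex, 43.4 in O-Ctrl and 45.5 in Y-Ctrl. *Fdft1* had overlapping intervals there too, at 78.1 CPM in O-Ex, 78.0 in O-Ctrl and 80.1 in Y-Ctrl, while its cortical values were 112 CPM in O-Ex, 105 CPM in O-Ctrl and 78.9 CPM in Y-Ctrl. The whole-section difference of *Fdft1* between control sections thus lay outside white matter, where the log2 ratio of O-Ctrl over Y-Ctrl was -0.04, against 0.39 in cortex. *Fdps* shared this shape, with 0.00 in white matter and 0.39 in cortex, and *Msmo1* was the other gene at least 1.2-fold higher in cortex of O-Ctrl, at 0.27.

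Between O-Ex and O-Ctrl, 0 of 8 passed 1.2-fold in either direction within white matter, beside 14.9% of genes higher and 6.07% lower. In cortex, *Sqle* and *Cyp51* were 2 of 8 at least 1.2-fold higher in O-Ex than in O-Ctrl and 0 were lower, beside 7.58% and 1.58% of genes. *Sqle* was at 61.1 CPM in cortex of O-Ex (56.5 to 65.9) and 48.5 CPM in that of O-Ctrl (44.8 to 52.4), and *Cyp51* at 44.7 CPM in O-Ex (40.9 to 48.9) and 36.2 CPM in O-Ctrl (33.0 to 39.5). These log2 ratios were 0.30 and 0.27, the intervals do not overlap, and scaling by the median of ratios left neither past 1.2-fold. O-Ex over Y-Ctrl gave 2 of 8 lower in white matter, *Idi1* at -0.58 and *Cyp51* at -0.30, and 0 higher, beside 9.22% and 25.4% of genes. In cortex it gave 5 of 8 higher and 0 lower, beside 11.6% and 3.17%: *Sqle* at 0.50, *Fdft1* at 0.48, *Msmo1* at 0.33, *Fdps* at 0.32 and *Hmgcs1* at 0.28.

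**Figure D4:**
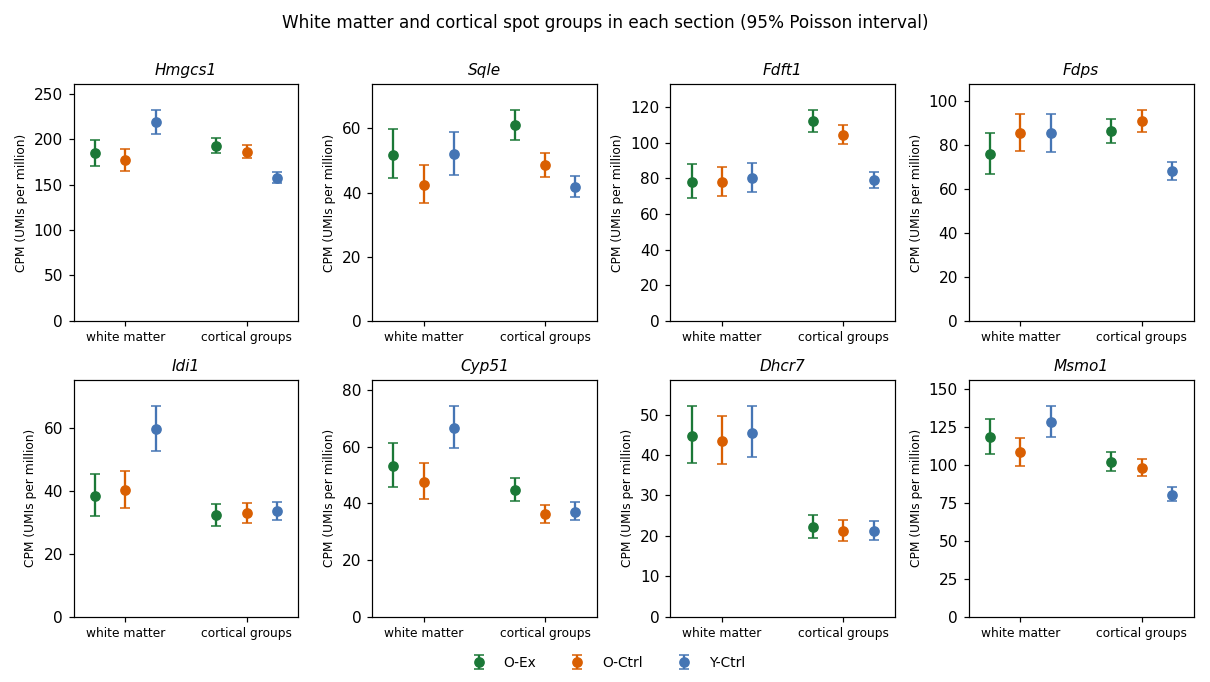
Levels of the 8 genes in CPM (vertical axis, from 0) in white matter and in the cortical groups of O-Ex, O-Ctrl and Y-Ctrl, with 95% Poisson intervals. *Idi1*, *Cyp51* and *Hmgcs1* are highest in Y-Ctrl within white matter, while *Hmgcs1*, *Fdft1*, *Fdps* and *Msmo1* are lowest in Y-Ctrl within cortex.

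Other cell markers also differed between these white matter groups. Microglial markers summed to 2224 CPM in white matter of O-Ex, 2051 in that of O-Ctrl and 1155 in that of Y-Ctrl. Of these, 7 of 10 were at least 1.2-fold higher in O-Ctrl than in Y-Ctrl, beside 14.5% of all genes. Astrocyte markers summed to 3857 CPM in O-Ex, 3567 in O-Ctrl and 2735 in Y-Ctrl, with 6 of 10 higher by that size, beside the same share. Myelin markers summed to 40422 CPM in O-Ex, 38486 in O-Ctrl and 41707 in Y-Ctrl, with 0 of 12 higher and 1 lower, *Opalin*, a protein of mature myelinating cells (346 CPM in O-Ex, 517 in O-Ctrl and 700 in Y-Ctrl). No marker of these 3 lists was at 0 in white matter of any section. The part of these markers in the enzyme values was not tested.

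Along the white matter marker score *Dhcr7*, *Idi1*, *Cyp51* and *Msmo1* were highest at the top. When the spots of each section were cut into 10 equal bins by that score, *Dhcr7* in the top bin was at 44.5 CPM in O-Ex, 44.5 in O-Ctrl and 52.1 in Y-Ctrl, against 22.8 CPM in O-Ex, 19.7 in O-Ctrl and 18.8 in Y-Ctrl in the bottom bin. *Idi1* was at 41.5 CPM in O-Ex, 43.2 in O-Ctrl and 65.4 in Y-Ctrl in the top bin, against 30.6 CPM in O-Ex, 28.4 in O-Ctrl and 28.1 in Y-Ctrl in the bottom one. *Cyp51* was at 51.9 CPM in O-Ex, 51.5 in O-Ctrl and 70.7 in Y-Ctrl, against 36.5 CPM in O-Ex, 33.1 in O-Ctrl and 29.6 in Y-Ctrl. *Msmo1* was at 122 CPM in O-Ex, 116 in O-Ctrl and 128 in Y-Ctrl, against 91.0 CPM in O-Ex, 95.6 in O-Ctrl and 72.7 in Y-Ctrl. These genes were all higher in the top bin in every section, and all had their highest top-bin value in Y-Ctrl. For *Idi1* and *Cyp51* the Y-Ctrl interval lay above those of the other sections, while for *Dhcr7* and *Msmo1* it overlapped them. *Hmgcs1* was at 184 CPM in O-Ex, 176 in O-Ctrl and 229 in Y-Ctrl in the top bin, against 176 CPM in O-Ex, 173 in O-Ctrl and 134 in Y-Ctrl in the bottom bin, a gap seen in Y-Ctrl and scarcely in the others. *Fdft1* was lower in the top bin in O-Ex (77.1 against 95.8 CPM) and O-Ctrl (79.9 against 99.4 CPM) but not in Y-Ctrl (82.4 against 70.9 CPM).

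**Figure D5:**
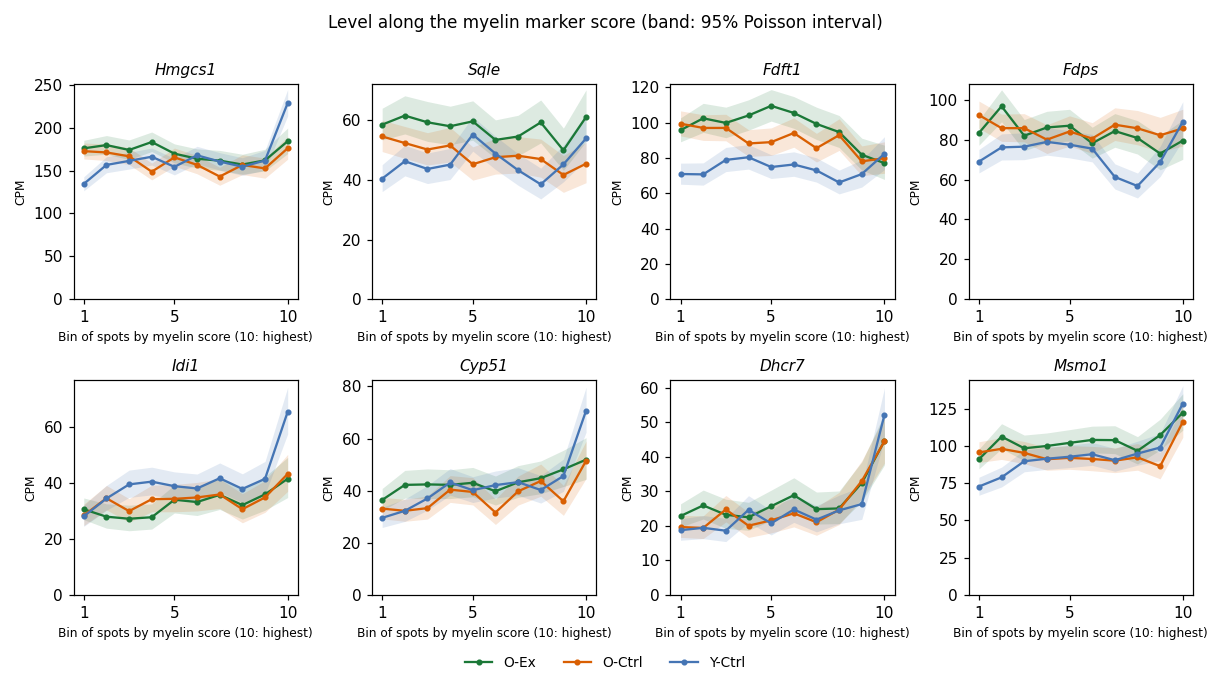
Level of each gene in CPM (vertical axis, from 0) over 10 bins of spots ordered by the white matter marker score (horizontal axis, low to high) in O-Ex, O-Ctrl and Y-Ctrl; bands are 95% Poisson intervals. *Dhcr7*, *Idi1*, *Cyp51* and *Msmo1* are highest in the last bin of all sections. In that bin the Y-Ctrl bands of *Hmgcs1*, *Idi1* and *Cyp51* lie above those of the other sections.

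Members were compared with each other over the 45 values of 15 spot groups in 3 sections, described by Pearson correlation of log2(CPM + 5). The points share sections, depth and tissue makeup. *Msmo1* and *Sqle* were most alike (r = 0.83), followed by *Fdft1* and *Fdps* (r = 0.81) and *Hmgcs1* and *Msmo1* (r = 0.80). *Idi1* was most like *Cyp51* (r = 0.66), *Dhcr7* most like *Msmo1* (r = 0.59), and *Fdft1* and *Idi1* were least alike (r = 0.34). Of the other genes, those closest to the mean of the 8 were *Cfl2* (r = 0.74), *Insig1* (r = 0.73), *Reep5* (r = 0.73), *Acat2* (r = 0.72) and *Phlda3* (r = 0.70). Acat2 is the acetyl-CoA acetyltransferase at the head of the same route, and Insig1 the sterol-sensing protein that retains the SREBP complex in the endoplasmic reticulum.

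The remaining enzymes of the route did not all follow. Of 14 further cholesterol synthesis enzymes, 6 rose and 3 fell in white matter over cortex by the same edgeR test, beside 34.6% and 33.2% of all genes. Their median log2 difference was 0.01, beside 0.03 for all genes. *Sc5d* (0.97, SE 0.09, edgeR adjusted p = 8.05e-13), which makes 7-dehydrocholesterol, *Ebp* (0.98, SE 0.094, edgeR adjusted p = 2.43e-12), a sterol isomerase, and *Lss* (1.00, SE 0.144, edgeR adjusted p = 6.17e-08), which closes the sterol rings, rose with *Dhcr7*. In the hypothalamus 5 of the 14 rose and 0 fell, beside 23.9% and 23% of all genes. In the thalamus 1 rose and 4 fell, beside 23.6% and 24.5%.

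Between whole sections, *Ebp* was the further enzyme at least 1.2-fold higher in O-Ex than in O-Ctrl, 1 of 14, close to the 5.84% of all genes. It was at 25.2 CPM in O-Ex, 19.2 in O-Ctrl and 17.4 in Y-Ctrl. *Tm7sf2*, a sterol reductase, was at 16.9 CPM in O-Ex, 15.5 in O-Ctrl and 19.7 in Y-Ctrl. It was the 1 of 14 at least 1.2-fold lower in O-Ctrl than in Y-Ctrl, beside 2.27% of all genes. Among the regulators, *Srebf2*, which encodes SREBP-2, was at 115 CPM in O-Ex, 110 in O-Ctrl and 101 in Y-Ctrl, and its white matter level over cortex was -0.01 (SE 0.08, edgeR adjusted p = 0.947). *Srebf1*, which drives mainly fatty acid synthesis, was at 39.2 CPM in O-Ex, 39.8 in O-Ctrl and 31.7 in Y-Ctrl, and rose by 2.07 in white matter (SE 0.102, edgeR adjusted p = 5.71e-22). In all, 8 of 12 genes of the SREBP system and sterol uptake rose and 2 fell in white matter, beside 34.6% and 33.2% of all genes. Of 11 genes for cholesterol turnover and efflux, 8 rose and 3 fell there, beside the same shares of all genes. Among them *Cyp46a1*, the neuronal hydroxylase that clears cholesterol from the brain, fell by 1.86 (SE 0.139, edgeR adjusted p = 1.03e-15). *Apoe*, the main lipoprotein of the brain, was at 4632 CPM in white matter of O-Ex, 4363 in that of O-Ctrl and 2107 in that of Y-Ctrl.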

How the data were processed

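UMI counts per gene and spot were measured by 10x Visium in 3 mouse brain sections (O-Ex, O-Ctrl, Y-Ctrl; 1 each), and section totals over all barcodes were 53196124 UMIs in O-Ex, 58234443 in O-Ctrl and 62348064 in Y-Ctrl. The deposited tables hold raw, whole-number counts from the authors, written by Space Ranger, version 2.0.0 in their headers, on the mm10 build per the submitters' processing notes; 35 symbols are held by more than 1 ID, none of them a member. The labels name nuclear RNA, while the labels' protocols describe whole tissue sections on the array. Images and spot coordinates were not used.

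Spots with at least 3000 UMIs were kept, and no doublet caller was run. Each spot joined the spot group with its highest mean marker z-score (log counts per 10000, within section) where that was at least 1. Counts were summed per section and group. CPM carry exact 95% Poisson intervals, which cover counting error only, and sizes of 1.2-fold and 1.5-fold on CPM + 5 were counted over genes averaging 10 CPM or more. Tests used edgeR 4.0.16 in R 4.3.3 with filterByExpr, TMM scaling and section as a block, on 45 libraries, checked on simulated counts. Alternatives were DESeq2 1.42.0, other minimums (1000 and 5000 UMIs), scalings and pseudocounts (1 and 20 CPM), no filter on low values, spots whose best score led by 1 or more, and leaving out each section.

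Positions of promoter letters come from RefSeq (GRCm38.p6). Named genes are the 8 members, 2 most abundant and the extreme genes per list, and the 5 genes most like the members; Sc5d, Lss, Cyp46a1 and Opalin's white matter values, among other list genes, were picked for naming with their values in view. The members, lists and markers were chosen with earlier results of these data known. Some genes of these lists are counted with their list and not reported here by name.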

Additional observations from a re-analysis of the deposited data

Results flagged for a closer look

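In 3 comparisons a member moved in opposite directions in white matter and in the cortical groups, with Poisson intervals that do not overlap in either tissue. *Hmgcs1* in O-Ctrl over Y-Ctrl had a log2 ratio of -0.30 in white matter and 0.23 in the cortical groups. *Msmo1* in O-Ctrl over Y-Ctrl had -0.23 in white matter and 0.27 in the cortical groups. *Hmgcs1* in O-Ex over Y-Ctrl had -0.24 in white matter and 0.28 in the cortical groups. With 1 section per group these differences between tissues were not tested, and the comparisons share the Y-Ctrl section.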

How the results depend on the processing

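No value that was called or past 1.2-fold changed sign under the alternatives run. Values short of those limits did: 2 of 216 for whole sections, 13 of 144 in white matter, 7 of 144 in cortex and 11 of 280 between tissues, none over 0.14 in size (log2) as reported. With clearly scored spots, O-Ex over O-Ctrl in white matter was -0.20 for *Fdft1*, -0.10 for *Dhcr7* and 0.10 for *Idi1*. The number of members at least 1.2-fold higher in O-Ctrl than in Y-Ctrl was 0 with a pseudocount of 20 CPM and at a size of 1.5-fold. For O-Ex over Y-Ctrl, the number higher was 1 with median-of-ratios scaling and with a pseudocount of 20 CPM, and 0 at 1.5-fold; the number lower was 1 with median-of-ratios scaling, without mitochondrially encoded genes and with a pseudocount of 1 CPM. These alternatives for white matter and cortex were chosen after seeing the data: in white matter, O-Ex over O-Ctrl gave 1 higher with clearly scored spots and with a pseudocount of 1 CPM, and O-Ex over Y-Ctrl gave 1 lower with at least 5000 UMIs and with a pseudocount of 20 CPM and 3 lower with clearly scored spots and with median-of-ratios scaling; in cortex, O-Ex over O-Ctrl gave 1 higher with at least 1000 UMIs and with clearly scored spots, and 0 with median-of-ratios scaling and with a pseudocount of 20 CPM, and O-Ex over Y-Ctrl gave 4 to 6 higher. Leaving out each section gave 2 to 5 members lower in the thalamus and 0 to 1 lower in white matter. Without the section block the hypothalamus had 6 members higher, with *Fdft1* not called (edgeR adjusted p = 0.123), and the other counts were unchanged in the 3 further tissues. The sections carry no replicate number that pairs them. Clearly scored spots could not be run for CA2 and CA3, which then had too few spots. The share of all genes past 1.2-fold with no filter on low values was 4.19% for O-Ex over O-Ctrl, 2.99% for O-Ctrl over Y-Ctrl and 7.76% for O-Ex over Y-Ctrl. Of 280 single-gene values between tissues, 257 kept their side of the threshold, 9 gained a call and 14 lost it; of 216 ratios between sections, 214 moved by less than their counting interval. The cause of each change was not tested. Depth limits small groups most: in the habenula *Idi1* rests on 20 to 40 UMIs per section.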

Other observations

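Fatty acid synthesis, which shares its precursor with the sterol route, was counted in the same test. Of 11 of its genes, 10 rose and 0 fell in white matter over cortex by the edgeR test, beside 34.6% and 33.2% of all genes. *Scd2*, a desaturase, rose by 2.34 (SE 0.071, edgeR adjusted p = 2.76e-29), at 3010 CPM in white matter of O-Ex, 3215 in that of O-Ctrl and 2771 in that of Y-Ctrl. Of 9 genes of the isoprenoid branch, which draws on the farnesyl diphosphate made by Fdps, 3 rose and 4 fell, close to those shares of all genes. *Fnta*, a subunit of the enzymes that attach isoprenoid lipids to proteins, rose by 1.22 (SE 0.081, edgeR adjusted p = 2.03e-17), and *Coq2*, of ubiquinone synthesis, fell by 0.51 (SE 0.072, edgeR adjusted p = 2.98e-08). Between whole sections 0 of 10 fatty acid genes and 0 of 7 isoprenoid genes passed 1.2-fold in any comparison. Of all genes, 0.821% to 9.18% did so, by comparison and direction.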
